A study of Mus musculus with 72 samples.

Results

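The genes described here are 10 stress-responsive genes of the mouse: the growth arrest and DNA damage genes Gadd45a, Gadd45b and Gadd45g, the secreted stress factor Gdf15, the stress factor Atf3, and the immediate early genes Egr1, Fos, Jun, Junb and Myc. They are named members of these gene families, chosen with earlier results of these data known and with no measured value in the rule, and were found on the arrays through the RefSeq transcript that each probe is annotated with. This gave 12 of 56605 probes for 10 of 23787 named genes, with Junb and Myc each on 2 probes and the other genes on 1. RNA came from the liver and the lung of female C57BL/6 J mice that were 6 to 8 weeks old, taken 48 h after a single surface dose of X-rays to the whole body or after sham irradiation, which is the 0 Gy group. The irradiated groups received, from the highest to the lowest dose, 12, 8, 4, 2 and 1 Gy. There were 3 mice at each dose, numbered 1 to 6, 11 to 16 and 21 to 26 with 1 of each number series at every dose, and 1 array for each tissue and mouse, which is 18 liver and 18 lung arrays. The labels give no further treatment and no genetic change for any group. Levels are log2 spot intensities of 1-colour arrays after background correction and quantile normalization within a tissue. A gene is said to have risen or fallen where limma's adjusted p, over all probes tested, was below 0.05 and the log2 change exceeded 1 in size. Whether the mice of a group overlapped with the controls is given as a description. The share of all probes separated in this way was not counted.

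Immediate early genes are switched on within minutes of a stimulus without the need for new protein synthesis, and their transcripts are usually short-lived. Fos and Jun proteins pair to form the AP-1 transcription factor, Junb is an AP-1 partner, Atf3 belongs to the related ATF family, and Egr1 is a zinc finger transcription factor. Myc drives cell growth and ribosome production. The GADD45 proteins bind p21, PCNA and the MAP kinase kinase kinase MEKK4 and act in growth arrest, DNA repair and stress kinase signalling, and Gadd45a is a p53 target. GDF15 is a secreted member of the TGF-beta superfamily that responds to p53 and to the integrated stress response, and acts through the brainstem receptor GFRAL.

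The promoters of 4 AP-1 and ATF genes (Fos, Jun, Junb and Atf3) and of the 2 GADD45 genes that rose are shown because they place the AP-1, CREB/ATF and TATA sequence elements beside the values. RefSeq promoter windows were matched for 8 of the 10 genes, and each sequence printed is the 250 bases before the annotated start, 5′ to 3′, in build GRCm38.p6. Capitals mark matches on either strand to the TATA box TATAAA, to the NF-Y motif CCAAT, to the core TGACG of the CREB/ATF site, to the AP-1 site TGANTCA, to its more widely spaced form TGANNTCA, or to the E-box CACGTG that MYC and its partner MAX can bind. A match is a description of letters only. The windows lie at chr12:85473640-85473889, + strand (Fos), chr4:95052223-95052472, - strand (Jun), chr8:84978749-84978998, - strand (Junb), chr1:191183334-191183583, - strand (Atf3), chr10:80929841-80930090, + strand (Gadd45b) and chr13:51846425-51846674, + strand (Gadd45g).
Fos: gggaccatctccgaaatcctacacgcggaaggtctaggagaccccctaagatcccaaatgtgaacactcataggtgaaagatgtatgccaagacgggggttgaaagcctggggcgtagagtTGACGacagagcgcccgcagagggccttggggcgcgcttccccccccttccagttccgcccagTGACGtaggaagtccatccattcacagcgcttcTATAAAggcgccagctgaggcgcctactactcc
Jun: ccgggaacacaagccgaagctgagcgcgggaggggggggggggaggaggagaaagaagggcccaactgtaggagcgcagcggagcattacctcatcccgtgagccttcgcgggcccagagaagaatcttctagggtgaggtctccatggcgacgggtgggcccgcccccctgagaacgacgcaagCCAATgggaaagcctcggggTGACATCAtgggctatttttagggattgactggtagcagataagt
Junb: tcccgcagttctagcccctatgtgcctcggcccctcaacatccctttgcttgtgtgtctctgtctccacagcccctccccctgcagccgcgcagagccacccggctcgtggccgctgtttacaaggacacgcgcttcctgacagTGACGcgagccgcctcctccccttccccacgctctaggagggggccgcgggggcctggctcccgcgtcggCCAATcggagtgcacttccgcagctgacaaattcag
Atf3: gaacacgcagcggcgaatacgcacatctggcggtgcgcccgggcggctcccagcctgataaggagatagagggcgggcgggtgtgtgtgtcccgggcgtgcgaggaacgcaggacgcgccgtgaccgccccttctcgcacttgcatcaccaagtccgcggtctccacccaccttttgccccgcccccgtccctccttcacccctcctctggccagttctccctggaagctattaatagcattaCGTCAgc
Gadd45b: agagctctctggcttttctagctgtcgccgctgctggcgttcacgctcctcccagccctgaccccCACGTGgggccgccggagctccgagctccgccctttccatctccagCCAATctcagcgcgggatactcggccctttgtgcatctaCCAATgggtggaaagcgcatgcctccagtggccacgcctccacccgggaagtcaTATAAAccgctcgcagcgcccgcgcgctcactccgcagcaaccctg
Gadd45g: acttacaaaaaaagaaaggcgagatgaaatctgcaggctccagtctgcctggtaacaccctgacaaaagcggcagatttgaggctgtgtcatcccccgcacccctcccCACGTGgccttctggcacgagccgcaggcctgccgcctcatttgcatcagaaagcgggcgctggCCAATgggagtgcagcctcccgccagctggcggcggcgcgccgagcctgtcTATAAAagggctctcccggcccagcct
TGACG was found in the windows of Fos (2 matches), Junb and Atf3, which is 3 of the 8 genes, and in 17.8% of all 32851 promoter windows of this length. The Jun window held TGANNTCA, as did 11.9% of all windows. TGANTCA was in none of the 8 and in 6.75% of all windows. TATAAA was in those of Fos, Gadd45b and Gadd45g and in 12.4% of all windows, and CACGTG in those of Gadd45b and Gadd45g and in 6.02% of all windows. CCAAT was in 5 of the 8, those of Jun, Junb, Gadd45a, Gadd45b and Gadd45g, and in 33.8% of all windows. The first of the 2 listed Gdf15 windows held none of these motifs. The promoters of Gadd45a, Gdf15, Egr1 and Myc are not shown.

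Between 46.1% and 54% of the spots of a liver array, and between 54.1% and 64% of those of a lung array, were well above background, and no spot was saturated. The brightest probe of each of the 10 genes was well above background on all 36 arrays. One spot, Fos in the lung of mouse 16 at 12 Gy, was marked as an outlier by the scanner software and is missing, so that 2 mice remain there. The tissues carried their labels: all 10 hepatocyte markers were well above background at every dose in liver, with a summed intensity of 2700000 to 2880000, and all 10 lung epithelial markers in lung, with 1580000 to 1840000, against 4160 to 8820 for the latter in liver. The hepatocyte markers summed to 31100 to 110000 in lung, with 6 to 9 of 10 well above background on all arrays of a dose. The arrays lay on 5 slides. Liver arrays of 0 and 1 Gy and 2 of 3 of those of 2 Gy were on slide 1, the third of 2 Gy, all of 4 and 8 Gy and 1 of 12 Gy on slide 2, and 2 of 12 Gy on slide 3. Lung arrays of 0 and 1 Gy were on slide 3, those of 2 and 4 Gy and 2 of 8 Gy on slide 4, and 1 of 8 Gy (mouse 25) and all of 12 Gy on slide 5. The lung arrays of slide 5 had 54.1% to 54.8% of spots well above background. Their median spot intensity before normalization was 80 to 85. For the other lung arrays these were 59.2% to 64% and 107.5 to 124. In lung 0 Gy shared a slide with 1 Gy alone, so that for higher doses dose and slide cannot be told apart against 0 Gy, and within-slide values are given beside the main results.

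Gdf15 rose in lung at every dose. Its log2 intensity in the 3 mice was 7.63, 7.61 and 7.31 at 0 Gy, 8.80, 8.85 and 8.99 at 1 Gy, and 9.55, 9.85 and 10.01 at 2 Gy. It was 10.72, 10.83 and 10.92 at 4 Gy, 11.04, 11.62 and 11.60 at 8 Gy, and 11.97, 11.95 and 12.14 at 12 Gy. The 6 dose groups did not overlap with one another at any step, and the SD within a dose was 0.19 on the log2 scale, below the median of 0.29 over all lung probes. Against 0 Gy it rose by 1.37 ± 0.17 (log2, SE) at 1 Gy (2.58-fold, adjusted p = 0.00603 in limma), 2.29 at 2 Gy, 3.31 at 4 Gy, 3.91 at 8 Gy and 4.50 ± 0.17 at 12 Gy (22.7-fold, adjusted p = 1.2e-09). Of the 10 genes, 1 was called at each of 1, 2, 4 and 8 Gy and 3 at 12 Gy, where 0.0227%, 0.443%, 1.46%, 2.52% and 7.32% of the 43979 lung probes tested were called. The linear trend was 3.94 ± 0.44 over 12 Gy (adjusted p = 6.23e-06). On the trend 3 of the 10 genes and 7.05% of all probes were called. The rise was present within each slide, at 1.37 from 0 to 1 Gy on slide 3, 1.02 from 2 to 4 Gy and 1.53 from 2 to 8 Gy on slide 4, and 0.42 from the single 8 Gy array to 12 Gy on slide 5. With slide as a term of the model the trend was 2.95 (adjusted p = 0.0982). The 1 Gy call was lost without the control mouse 21 (adjusted p = 0.0528) or without mouse 22 (adjusted p = 0.0525), and the calls from 2 Gy upwards held without each of the 18 arrays.

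**Figure D1:**
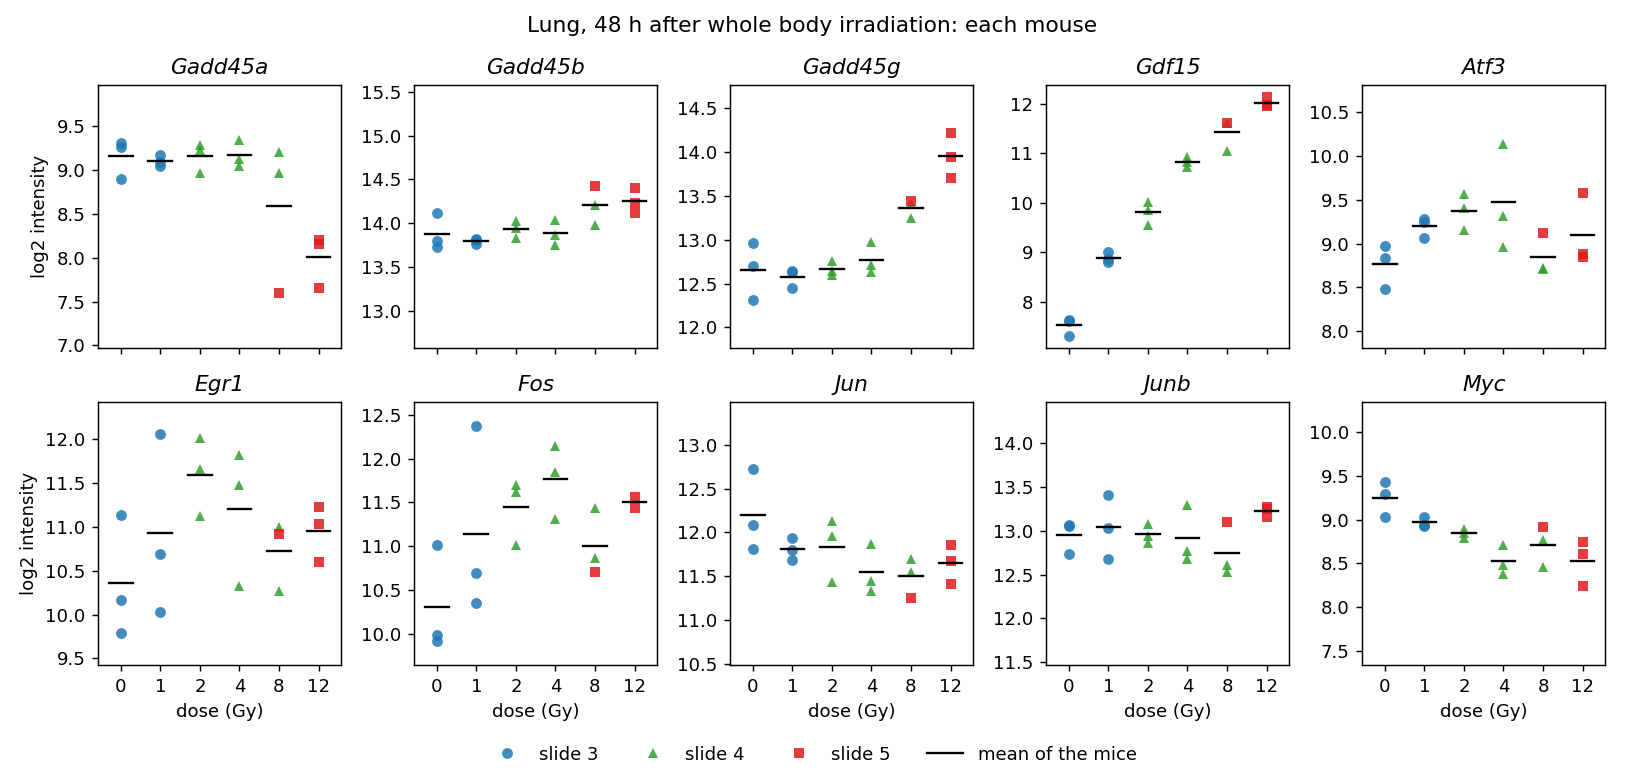
Log2 intensity of the 10 genes in lung against dose in Gy (an ordered, not a proportional, axis), 1 point per mouse with the slide of its array by shape and colour, and a black line for the mean of the mice at a dose. Gdf15 climbs from 7.31 to 7.63 at 0 Gy to 11.95 to 12.14 at 12 Gy, Gadd45g climbs at 8 and 12 Gy, and the low Gadd45a values of 7.60 to 8.21 are all on slide 5.

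In liver Gdf15 also increased with dose, from a higher and far more variable level. The values in the mice of the 3 number series, in the order 1 to 6, 11 to 16 and 21 to 26, were 8.21, 10.09 and 11.32 at 0 Gy, 9.76, 11.03 and 11.39 at 1 Gy, and 9.98, 10.71 and 11.37 at 2 Gy. They were 10.50, 11.70 and 12.29 at 4 Gy, 10.85, 12.30 and 13.25 at 8 Gy, and 12.17, 12.00 and 12.89 at 12 Gy. Only at 12 Gy did all 3 mice lie above all 3 controls. The trend was 2.31 ± 0.58 over 12 Gy (4.97-fold, adjusted p = 0.0156). On the liver trend 3 of the 10 genes and 2.03% of the 38362 probes tested were called. No single dose passed in the main setting: the changes were 2.26 at 8 Gy (adjusted p = 0.0737) and 2.48 at 12 Gy (adjusted p = 0.0639). Both doses passed with a background offset of 50 (adjusted p = 0.0498 and 0.0392). They also passed with probes well above background on at least 3 arrays, and without the liver of mouse 5 or of mouse 21 (adjusted p from 0.0282 to 0.0493). Within a number series the 12 Gy mouse exceeded the 0 Gy mouse by 3.96, 1.92 and 1.57. With slide as a term of the model the trend was 1.37 (adjusted p = 0.672), and within slide 1 the difference of 2 Gy from 0 Gy was 0.47.

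Gadd45b rose in liver from 4 Gy upwards. Its log2 intensities were 7.79, 8.29 and 8.98 at 0 Gy, 7.98, 8.54 and 8.61 at 1 Gy, and 9.09, 9.05 and 9.74 at 2 Gy. They were 9.83, 10.07 and 11.02 at 4 Gy, 10.24, 11.00 and 11.11 at 8 Gy, and 10.82, 10.24 and 11.53 at 12 Gy. All mice at 2 Gy and above lay over all controls, and 1 Gy lay within the range of the controls. The rise was 1.95 ± 0.40 at 4 Gy (adjusted p = 0.0157), 2.43 ± 0.40 at 8 Gy (adjusted p = 0.0022) and 2.51 ± 0.40 at 12 Gy (5.69-fold, adjusted p = 0.00151, limma). The calls among the 10 genes in liver were 0 at 1 Gy, 0 at 2 Gy, 2 at 4 Gy, 1 at 8 Gy and 1 at 12 Gy, where 0.0339%, 0.245%, 0.944%, 2.21% and 2.06% of all probes were called. Its trend was 2.67 ± 0.42 (adjusted p = 0.000487). The call at 4 Gy was lost without mouse 1, 11 or 24 (adjusted p of 0.0731, 0.0679 and 0.0789), and those at 8 and 12 Gy held without each of the 18 arrays. Since 0 Gy and the higher doses were on different slides, the trend with slide as a term was 1.42 (adjusted p = 0.36). Within slide 1 the difference of 2 Gy from 0 Gy was 0.72, and within slide 2 that of 8 Gy from the single 2 Gy array was 1.04.

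In lung Gadd45b stayed near its high level, between 13.73 and 14.12 at 0 Gy and between 14.12 and 14.40 at 12 Gy. The difference at 12 Gy was 0.37 ± 0.15 (adjusted p = 0.0932). The trend of 0.45 ± 0.12 over 12 Gy had an adjusted p of 0.0077 but did not reach the fold limit.

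**Figure D2:**
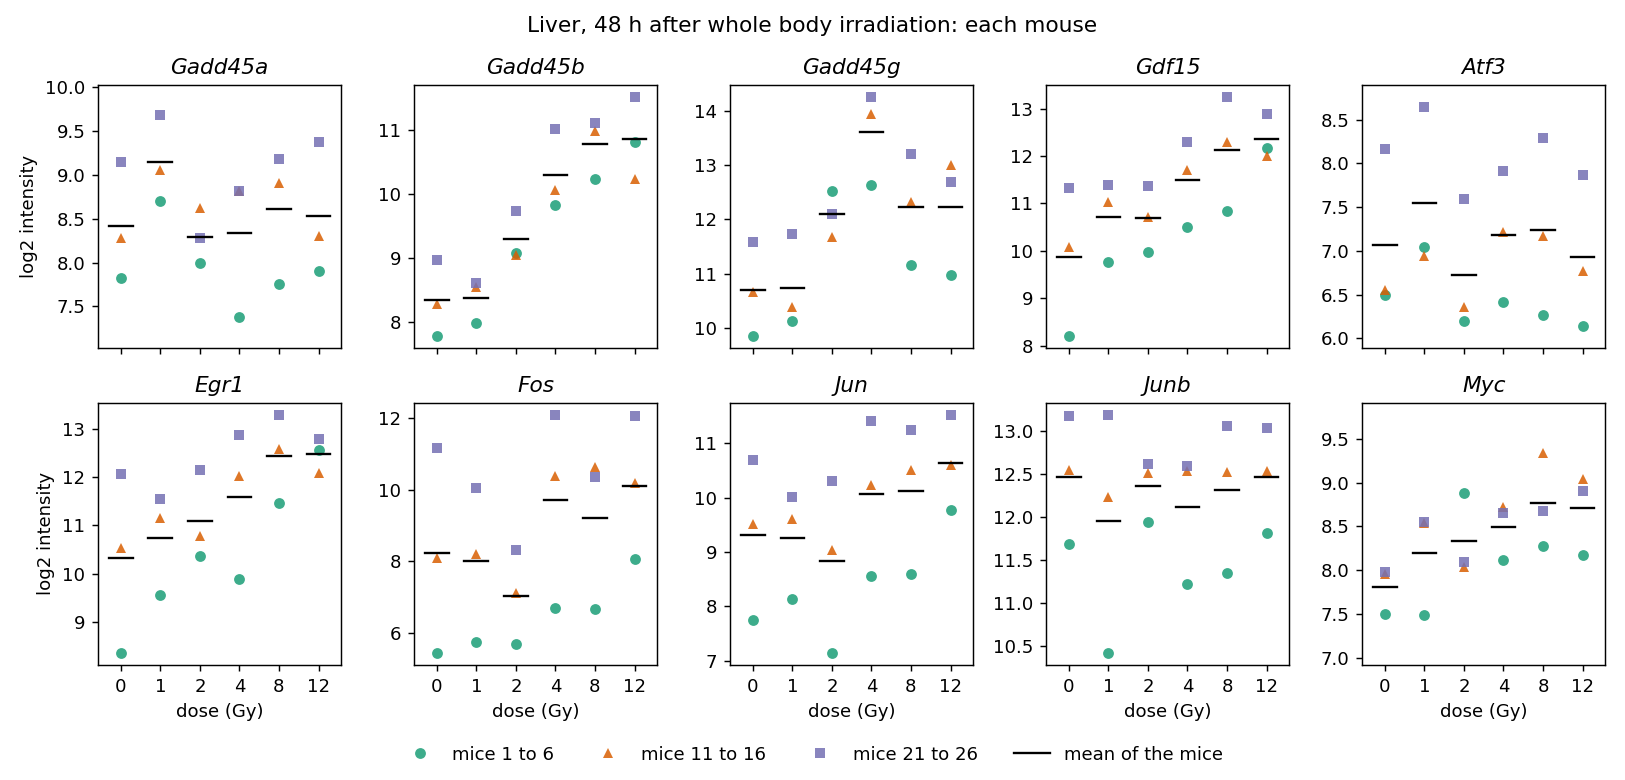
Log2 intensity of the 10 genes in liver against dose in Gy (an ordered, not a proportional, axis), 1 point per mouse with its number series by shape and colour, and a black line for the mean of the mice at a dose. Gadd45b moves from 7.79 to 8.98 at 0 Gy to 10.24 to 11.53 at 12 Gy, while Fos spans 5.42 to 11.17 among the 0 Gy mice alone, with the mouse of the series 21 to 26 highest in most panels.

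Gadd45g had its highest liver values at 4 Gy. The values were 9.86, 10.67 and 11.59 at 0 Gy, 10.12, 10.39 and 11.72 at 1 Gy, 12.52, 11.67 and 12.10 at 2 Gy, and 12.62, 13.94 and 14.25 at 4 Gy. They were 11.17, 12.32 and 13.21 at 8 Gy and 10.98, 13.01 and 12.69 at 12 Gy. The mice at 2 and 4 Gy lay above all controls, and those at 8 and 12 Gy overlapped with them. Gadd45g rose at 4 Gy by 2.90 ± 0.66 (7.47-fold, adjusted p = 0.0272), and did not pass at 8 Gy (1.53, adjusted p = 0.161), at 12 Gy (1.52, adjusted p = 0.202) or on the trend (1.31, adjusted p = 0.312). The rise was lost without mouse 1, 11, 14 or 24 (adjusted p from 0.0957 to 0.117) and with slide as a term (2.89, adjusted p = 0.447). Within slide 1 the difference of 2 Gy from 0 Gy was 1.39, and within slide 2 that of 4 Gy from the single 2 Gy array was 1.51.

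In lung Gadd45g was level up to 4 Gy and higher at the highest doses. Its values were 12.96, 12.71 and 12.31 at 0 Gy, 13.25, 13.40 and 13.44 at 8 Gy, and 13.95, 14.22 and 13.71 at 12 Gy, and the 9 arrays of 1 to 4 Gy lay between 12.45 and 12.98. The groups of 8 and 12 Gy overlapped neither with 0 Gy nor with each other. It rose by 1.3 ± 0.18 at 12 Gy (2.46-fold, adjusted p = 0.000189) and by 1.39 ± 0.15 on the trend (adjusted p = 3.31e-06), and the 0.71 at 8 Gy (adjusted p = 0.03) was under the fold limit. It was called at 8 Gy with the deposited series values (1.04, adjusted p = 0.00256) and with the processed signal scaled to its 75th percentile (1.02, adjusted p = 0.00826). Within slide 4 the difference of 8 Gy from 2 Gy was 0.66, and within slide 5 that of 12 Gy from the single 8 Gy array was 0.52. The trend was 1.03 without the 4 arrays of slide 5 (adjusted p = 0.0255) and 1.33 with slide as a term (adjusted p = 0.144).

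The low Gadd45a values in lung were all on slide 5, which held all of the 12 Gy arrays. A change with dose and one with slide cannot be told apart there. Its values were 9.26, 9.31 and 8.89 at 0 Gy, and the 9 arrays of 1 to 4 Gy lay between 8.97 and 9.35. At 8 Gy the mice on slide 4 had 9.21 and 8.97, and the mouse on slide 5 had 7.60. At 12 Gy, all on slide 5, the values were 8.21, 7.65 and 8.16. Gadd45a fell by 1.15 on the log2 scale at 12 Gy (SE 0.31, adjusted p = 0.0157) and by 1.17 on the trend (adjusted p = 0.0015). The call at 12 Gy was lost without the lung of mouse 11 (adjusted p = 0.0541) or mouse 16 (adjusted p = 0.0701), and with slide as a random block (-0.93, adjusted p = 0.181). Without mouse 16 the trend was -0.99, under the fold limit. Without the 4 arrays of slide 5 the trend was -0.05 (adjusted p = 0.925), and with slide as a term it was 0.12 (adjusted p = 0.997). On slide 4 the difference of 8 Gy from 2 Gy was -0.07, and on slide 5 that of 12 Gy from 8 Gy was 0.41. The 3 genes most like it over the 18 lung arrays, of 13425 genes well above background on all of them, were Tmsb4x (r = 0.978), the pseudogene Rpl34-ps1 (r = 0.968) and Ltbr (r = 0.956).

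In liver Gadd45a did not pass at any dose, with changes between -0.12 and 0.73 and a trend of -0.08 (adjusted p = 0.938). Its values ran from 7.83 to 9.15 at 0 Gy and from 7.90 to 9.38 at 12 Gy. The 5 irradiated groups all overlapped with the controls.

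Fos, Jun and Egr1 differed widely between liver mice of the same dose. Fos was 5.42, 8.09 and 11.17 in the mice 1, 11 and 21 at 0 Gy, 6.68, 10.38 and 12.10 in the mice 4, 14 and 24 at 4 Gy, and 8.07, 10.19 and 12.05 in the mice 6, 16 and 26 at 12 Gy. Jun was 7.75, 9.52 and 10.69 at 0 Gy and 9.77, 10.61 and 11.53 at 12 Gy. Egr1 was 8.36, 10.54 and 12.06 at 0 Gy, 11.46, 12.58 and 13.29 at 8 Gy, and 12.56, 12.08 and 12.79 at 12 Gy. The SD within a dose was 2.28 for Fos, 1.32 for Jun and 1.21 for Egr1, against a median of 0.26 over all liver probes. Mouse 21, a sham-irradiated control, had more Fos than any mouse of the series 1 to 6 or 11 to 16 at any dose.

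On the dose trend Egr1 rose by 2.18 ± 0.67 over 12 Gy (4.53-fold, adjusted p = 0.0463), and this call was lost without any 1 of the mice 1, 2, 3, 6, 11, 12, 13, 14, 15, 25 or 26 (highest adjusted p = 0.088). It was also lost under 7 of 12 other settings, with slide as a term at 1.25 (adjusted p = 0.747), with slide as a random block (adjusted p = 0.116), and with the other signals, no filter or joint normalization (adjusted p from 0.0517 to 0.0675). Within slide 1 Egr1 differed from 0 Gy by 0.43 at 1 Gy and 0.25 at 2 Gy, and within slide 2 it differed from the single 2 Gy array by -0.56 at 4 Gy and 0.29 at 8 Gy. The Fos trend of 2.29 ± 1.3 (adjusted p = 0.307) and the Jun trend of 1.54 ± 0.73 (adjusted p = 0.214) did not pass. None of the 3 passed at a single dose in liver. With the number series of the mice as a block, chosen after seeing the data, Egr1 passed at 8 and 12 Gy (adjusted p = 0.0221 and 0.0216), Jun at 12 Gy (adjusted p = 0.00767) and both the Fos and the Jun trend (adjusted p = 0.0288 and 0.00216). Within the series 1 to 6, 11 to 16 and 21 to 26 the 12 Gy mouse differed from the 0 Gy mouse by 4.20, 1.54 and 0.74 for Egr1. Junb had 12.47 ± 0.75 (SD, n = 3) at 0 Gy and 12.47 ± 0.61 at 12 Gy, with a change of -0.01. Atf3 had 7.07 ± 0.95 at 0 Gy and 6.93 ± 0.87 at 12 Gy, with a trend of -0.15 (adjusted p = 0.902).

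The differences between liver mice of the same dose followed the number series of the labels. Since this was looked at after the values were seen, it is given as a description without a test, and the labels do not say what a number series stands for. In each of the 6 doses the mouse of the series 21 to 26 exceeded that of 1 to 6 for Fos, Jun, Junb, Egr1, Atf3, Gdf15, Gadd45a and Gadd45b, and in 5 of 6 for Gadd45g and Myc. The share of all probes with this order at every dose was not counted. For Jun and Junb the mouse of 11 to 16 lay between the other two at all 6 doses. The mean difference between the series 21 to 26 and 1 to 6 within doses was 4.30 for Fos (19.6-fold), 2.54 for Jun, 2.08 for Egr1, 1.84 for Gdf15, 1.65 for Atf3, 1.54 for Junb, 1.38 for Gadd45g, 1.16 for Gadd45a, 0.87 for Gadd45b and 0.40 for Myc. By size, that of Fos ranked 1 among the 38362 probes, that of Jun 4, that of Egr1 7 and that of Gdf15 9, and 8 of the 10 genes were within the first 50. The difference was present on single slides, as the 3 liver arrays of 0 Gy were all on slide 1.

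**Figure D3:**
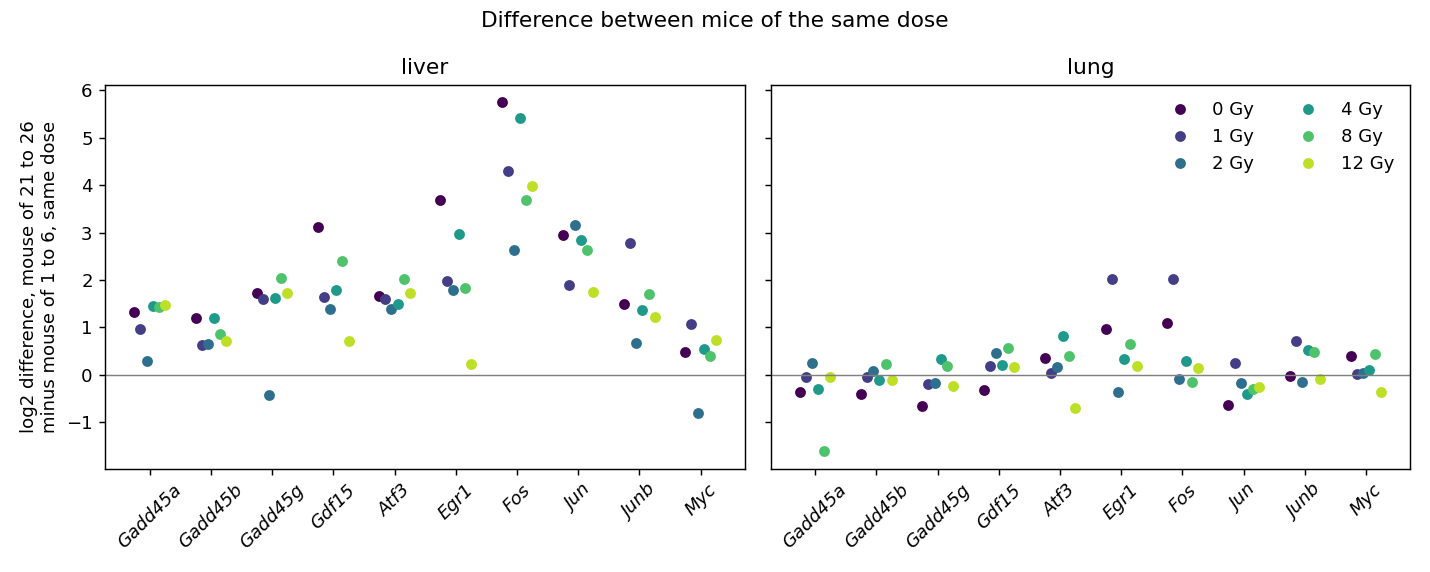
Log2 difference between the mouse of the series 21 to 26 and the mouse of the series 1 to 6 at the same dose, for each of the 10 genes, 1 point per dose by colour, in liver (left) and lung (right). In liver all 6 points lie above 0 for 8 of the genes and Fos averages 4.30. In lung each gene has points on both sides of 0, with 5 of 6 above 0 for Gdf15, Atf3, Egr1 and Myc. Fos averages 0.55 there.

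In lung the same difference was 0.64 for Egr1, 0.55 for Fos, 0.25 for Junb, 0.21 for Gdf15 and -0.26 for Jun, and 0 of the 10 genes were within the first 50 of the 43979 probes. Of the 25 named genes with the largest difference in liver, 7 were members, 6 came from the list of other immediate early genes and 1 from that of other AP-1 and ATF genes. They included the nuclear receptor Nr4a1 (2.96), the antiproliferative gene Btg2 (2.26), the AP-1 gene Fosb (1.69), the matrix protein gene Ccn1 (1.66), the MAP kinase phosphatase Dusp1 (1.59), Ier2 (1.51), the mRNA decay factor Zfp36 (1.36) and the chemokine Cxcl1 (1.21). In lung 0 of the 25 were members or of these lists. The deviations of the liver mice from their dose means went together across the members: over 18 mice r was 0.94 for Fos with Jun, 0.962 for Gdf15 with Egr1, 0.928 for Fos with Gadd45a and 0.91 for Fos with Junb, and between 0.352 and 0.712 for Myc with the other 9. In lung r was 0.908 for Fos with Egr1, 0.287 for Fos with Jun and 0.052 for Gdf15 with Fos. These points share arrays, so the values are descriptions.

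In lung none of Fos, Egr1, Jun, Junb and Atf3 passed at a dose or on the trend. Fos was 9.91, 9.98 and 11.01 at 0 Gy, 11.70, 11.02 and 11.62 at 2 Gy, and 11.84, 11.31 and 12.14 at 4 Gy. The differences from 0 Gy, 1.14 ± 0.44 at 2 Gy (adjusted p = 0.514) and 1.46 ± 0.44 at 4 Gy (adjusted p = 0.126), did not pass. All 3 mice at either dose lay above all controls, and the share of all probes with such a separation was not counted. At 12 Gy the 2 measured mice had 11.43 and 11.57, a difference of 1.2 ± 0.50 (adjusted p = 0.101). Without the lung of mouse 22 at 1 Gy, which had 12.37, the same differences at 4 and 12 Gy passed (adjusted p of 0.0309 and 0.0312). Egr1 differed most at 2 Gy, by 1.24 ± 0.49 (adjusted p = 0.518), with 10.17, 9.79 and 11.14 at 0 Gy and 12.01, 11.13 and 11.66 at 2 Gy. Within slide 3, the Fos difference of 1 Gy from 0 Gy was 0.84, and within slide 4 that of 8 Gy from 2 Gy was -0.30.

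Jun was lower in irradiated lung by 0.37 to 0.70 on the log2 scale without passing (smallest adjusted p = 0.112, at 12 Gy). Its values were 12.72, 11.81 and 12.08 at 0 Gy and 11.55, 11.70 and 11.25 at 8 Gy. Atf3 was higher at 4 Gy by 0.71 ± 0.27 (adjusted p = 0.233). The Junb change at 12 Gy was 0.28 (adjusted p = 0.372), and its second probe gave -0.47 (adjusted p = 0.342), so that the probes disagreed in sign without a call. The second probe was dim, and in mice 16 and 26 at 12 Gy (5.56 and 5.83) it was not well above background.

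From 2 Gy upwards Myc lay above the controls in liver and below them in lung, without a call at a dose or on the trend. At 1 Gy liver mouse 2 (7.48) lay below the controls and lung mouse 12 (9.04) within their range. In liver its values were 7.50, 7.95 and 7.97 at 0 Gy, 8.27, 9.34 and 8.67 at 8 Gy, and 8.17, 9.04 and 8.90 at 12 Gy, with all mice from 2 Gy upwards above all controls. The liver differences, 0.96 ± 0.35 at 8 Gy (adjusted p = 0.102) and 0.90 ± 0.35 at 12 Gy (adjusted p = 0.153), did not pass. In lung the values were 9.03, 9.29 and 9.44 at 0 Gy, 8.85, 8.79 and 8.90 at 2 Gy, 8.38, 8.71 and 8.48 at 4 Gy, and 8.61, 8.75 and 8.24 at 12 Gy, with all mice from 2 Gy upwards below all controls. The lung differences were -0.73 ± 0.17 at 4 Gy (adjusted p = 0.0302) and -0.72 ± 0.17 at 12 Gy (adjusted p = 0.00734), past the p limit but under the fold limit. Within slides the lung differences were -0.28 from 0 to 1 Gy, -0.32 from 2 to 4 Gy, -0.23 from 2 to 8 Gy and -0.38 from 8 to 12 Gy. In liver on slide 1 they were 0.38 at 1 Gy and 0.65 at 2 Gy against 0 Gy. On slide 2, against the single 2 Gy array, they were 0.40 at 4 Gy, 0.67 at 8 Gy and 0.08 at 12 Gy. With slide as a term the trend was 0.43 in liver (limma adjusted p = 0.81) and -0.64 in lung (adjusted p = 0.77). The second Myc probe had the same direction in every comparison within a tissue.

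Lymphocyte markers moved with dose in the same arrays. The summed intensity of 10 T cell markers in lung was 12500 to 54900 at 0 Gy and 2480 to 3560 at 12 Gy, and that of 10 B cell markers was 18800 to 41300 and 3100 to 3760, with 7 of 10 and 4 of 10 still well above background on all 12 Gy arrays. In liver the T cell sum was 3630 to 4080 at 0 Gy and 2410 to 2780 at 12 Gy. In between, 2 Gy (2170 to 3710) and 8 Gy (2890 to 4020) overlapped with 0 Gy. The liver B cell sum was 1430 to 1780 at 0 Gy and 550 to 602 at 12 Gy. In lung all 10 T cell and 9 of the 10 B cell markers fell at 12 Gy, and in liver 5 of 10 T cell and 4 of 9 tested B cell markers. The part of these cells in the Myc values or in those of the other members was not tested. Fewer cells of a type and less RNA per cell cannot be told apart in bulk tissue.

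The dose trends of lung and liver differed for 3 of the 10 genes, tested directly on the 36 arrays normalized together, where 7.24% of the 47376 probes were called. The trend of Gadd45b was lower in lung by 1.88 on the log2 scale over 12 Gy (difference -1.88 ± 0.40, adjusted p = 0.00163). That of Gdf15 was higher in lung by 2.11 ± 0.71 (adjusted p = 0.0361), a call that was lost without 9 of the 36 arrays in turn, the livers of mice 5, 6, 16, 21 and 22 and the lungs of mice 1, 11, 21 and 25 (highest adjusted p = 0.0797). It was also lost under 6 of 13 other settings, among them the deposited series values (1.71, adjusted p = 0.117), the processed signal scaled to its 75th percentile (1.75, adjusted p = 0.109), slide as a random block (2.03, adjusted p = 0.0957) and outlier spots kept (2.01, adjusted p = 0.0532). That of Myc was lower in lung (difference -1.27 ± 0.31, adjusted p = 0.00429), and its second probe gave -1.04 (adjusted p = 0.0411). For Egr1 (-1.87, adjusted p = 0.0954), Jun (-1.85, adjusted p = 0.0716) and Gadd45a (-1.11, adjusted p = 0.0889) the difference did not pass. Without the 4 lung arrays of slide 5, among them all of 12 Gy, the 3 differences were -2.0 for Gadd45b (adjusted p = 0.12), 3.76 for Gdf15 (adjusted p = 0.0661) and -1.71 for Myc (adjusted p = 0.0572).

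**Figure D4:**
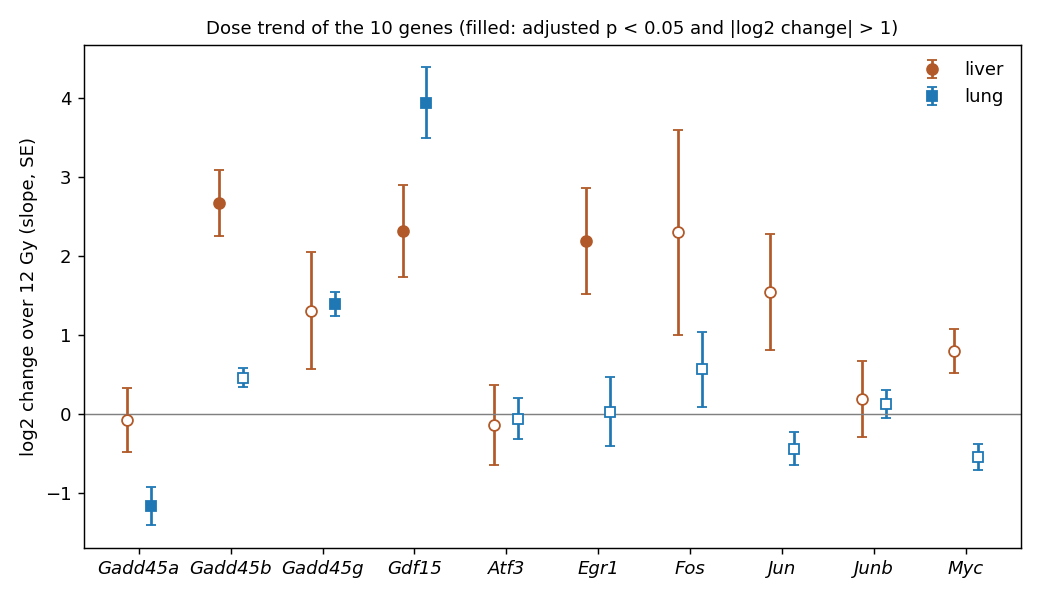
Dose trend of the 10 genes as the log2 change over 12 Gy with its standard error, in liver (circles) and lung (squares), filled where the adjusted p was below 0.05 and the change above 1 in size. Gadd45b stands at 2.67 in liver and 0.45 in lung, Gdf15 at 2.31 and 3.94, and Myc at 0.79 and -0.55.

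Without irradiation 4 of the 10 genes differed between the tissues, in a comparison where 35.5% of all probes were called. Gadd45b was 13.74 ± 0.24 (SD, n = 3) in lung and 9.17 ± 0.54 in liver on the common scale, a difference of 4.56 ± 0.28 (SE, 23.6-fold, adjusted p = 3.8e-14). Gdf15 was 6.97 ± 0.18 in lung and 10.53 ± 1.39 in liver, a difference of -3.56 ± 0.50 (adjusted p = 6.28e-07). Jun was higher in lung by 1.81 ± 0.67 (adjusted p = 0.0233) and Gadd45g by 1.08 ± 0.44 (adjusted p = 0.0403). With slide as a term of the model these last differences turned, to -1.33 for Jun (adjusted p = 0.542) and -0.54 for Gadd45g (adjusted p = 0.716), where the unirradiated livers and lungs lay on different slides. Those of Gadd45b and Gdf15 passed under all 11 alternative settings. At 12 Gy the liver values of Gadd45b reached 10.9 to 12.0 on the common scale, below the 13.6 to 14.0 of lung at 0 Gy. For Fos (0.88, adjusted p = 0.588) and Egr1 (-1.04, adjusted p = 0.223) the difference at 0 Gy did not pass, and Junb, Myc, Atf3 and Gadd45a differed by -0.62 to 0.24.

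Related genes gave the following counts on the dose trend, each over 1 probe per gene. Of 14 p53 targets 10 rose in liver and 9 in lung, led by the cell cycle inhibitor Cdkn1a (5.13 in liver, 2.89 in lung), Phlda3 in liver (3.42) and the receptor Eda2r (2.97 in liver, 3.51 in lung). Their median was 1.58 in liver and 1.42 in lung, against 0.00391 and 0.081 over all probes. Of 10 glucocorticoid responsive genes 7 rose in liver and 9 in lung, among them Fkbp5 (2.18 and 2.42). Of the other immediate early genes, 1 rose and 1 fell of 26 tested in liver, and 3 rose and 1 fell of 28 in lung. These were the matrix protein gene Ccn2 (1.63 in liver, 1.25 in lung), the kinase Sgk1 (1.02 in lung) and Dusp1 (1.02 in lung) as the genes that rose, and Dusp2, a phosphatase of lymphoid cells, as the one that fell (-1.06 in liver, -2.31 in lung).

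Of the other AP-1 and ATF genes, Maff rose (1.1) and Batf3 fell (-1.16) of 15 tested in liver, and Fosb rose (1.53) of 16 in lung. Of 21 tested genes of the integrated stress response, Ddit4 (1.99), Sesn2 (1.48) and Cebpb (1.07) rose in liver and the serine and folate enzymes Psat1 (-1.11) and Mthfd2 (-1.1) fell there, while in lung Ddit4 (1.93) and Sesn2 (1.82) rose. Of 17 GADD45 binding partners and stress MAP kinases, 0 passed on either trend, and 1 rose at 12 Gy in lung, the DNA glycosylase Tdg (1.11). Of the MYC network 0 of 13 passed in liver, and in lung Mxd3 (-2.28) and Mycn (-1.61) fell and Mlxip (1.16) rose. Of 20 MYC targets of ribosome making and growth 0 passed in either tissue, with a median of -0.07 in liver and 0.06 in lung. Of the GDF15 receptor genes, Gfral and Ret, 1 was tested in each tissue and did not pass. Of 10 clock output genes Nr1d1 fell in liver (-1.45), and Nr1d1 (-1.23) and Ciart (-1.03) fell in lung. Of the 12 proliferation genes 4 fell in liver and 5 in lung on the trend, and 8 in each tissue at 12 Gy. At 12 Gy 2.06% of all liver probes and 7.32% of all lung probes were called. The summed intensity of these genes was already lower at 1 Gy. In liver it was 1300 to 4430 at 0 Gy and 740 to 1290 at 1 Gy, and in lung 5210 to 15200 and 3090 to 3850.

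The genes whose log2 values over the 18 arrays of a tissue were most like those of a member that changed (other than Gadd45g in liver) were taken from the genes well above background on all of them, 12020 in liver and 13425 in lung. The r values mix differences between doses with those between mice of the same dose, which were not separated. The most alike genes are listed for each member. For Gadd45b in liver these genes were Cebpb (r = 0.945), Rhob (r = 0.934) and Lgals4 (r = 0.933). For Gdf15 in liver they were Cxcl1 (r = 0.964), Ckmt1 (r = 0.917) and Btg2 (r = 0.907), and for Egr1 the same 3 with 0.93, 0.907 and 0.89. For Gdf15 in lung they were Slc19a2 (r = 0.981), A930001C03Rik (r = 0.981) and Psrc1 (r = 0.978), and for Gadd45g in lung Nxn (r = 0.968), Nploc4 (r = 0.955) and 4930444P10Rik (r = 0.948).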

How the data were processed

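The authors deposited Agilent Feature Extraction tables. Their intensity columns hold, per the file headers, the median signal of a spot and of the background around it, not normalized between arrays. A processed-signal intensity and series-wide intensity values were also deposited, and how the latter were made is not given in the sources used here. Median intensities were corrected with limma's normal-exponential method (offset 0), control spots were dropped, outlier spots set to missing, the 18 arrays of a tissue (36 for comparisons of tissues) quantile-normalized, and log2 values averaged per probe. A probe entered a fit if it was well above background in any array. Contrasts of the 5 irradiated groups with 0 Gy came from limma models of 6 dose groups, linear trends (given over 12 Gy) from models of dose as a number, and their difference from an interaction. Adjustment was by Benjamini-Hochberg over all probes of a comparison. The authors' methods name the same correction method, quantile normalization and thresholds and average the probes of a transcript, which is an alternative here. Their filter keeps probes above background in any array, and the offset is not given. They report liver Gdf15 as upregulated at 12 Gy, where it did not pass in the main setting here. The mice of a group were separate animals, and their number limits the precision.

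Symbols came from RefSeq transcripts, without versions (34566 of 56605 probes named), and Ensembl transcripts were not matched. A gene is described by its brightest probe. All 10 members are named in every comparison, as are up to 3 called genes for a direction and list. The members and the lists were chosen with earlier results of these data known. Of 257 list genes 254 were found. Alternatives were other settings of background, signal, normalization, filter, outliers, probes and slide, single arrays left out, and the mouse number as a replicate block. Over all probes, same-numbered liver and lung samples did not deviate together (18 pairs, r from -0.065 to 0.096), and they were not taken as pairs in the main fits. For single members r over the 18 pairs ran from -0.501 for Jun to 0.539 for Fos and Junb. The description by number series, its block and the fits without slide 5 were chosen after seeing the data. Scripts were tested on simulated data. R 4.3.3, limma 3.58.1, data.table (version 1.17.8), statmod 1.5.0, Python 3.11.15 and matplotlib 3.10.9 were used.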

Additional observations from a re-analysis of the deposited data

Results flagged for a closer look

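The dose trends of 3 genes differed between lung and liver in a direct test of the difference (limma interaction of tissue and dose, 36 arrays). As lung minus liver over 12 Gy on the log2 scale, the difference was -1.88 for Gadd45b, 2.11 for Gdf15 and -1.27 for Myc. All 3 calls were lost with slide as a fixed term and without the lung arrays of slide 5. That of Gdf15 was also lost without 9 of the 36 arrays in turn. At 0 Gy Gdf15 and Gadd45b also differed between the tissues, by -3.56 and 4.56.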

How the results depend on the processing

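Of 50 tests of the 10 genes at single doses, 4 were called in liver and 7 in lung, and of 10 tests each, 3 on the liver trend, 3 on the lung trend, 3 on the difference of trends and 4 between the tissues at 0 Gy. Of all probes, 0.0339% to 2.21% were called at single doses in liver and 0.0227% to 7.32% in lung. The shares were 2.03% on the liver trend, 7.05% on the lung trend, 7.24% on the difference and 35.5% at 0 Gy. With slide as a fixed term the calls were 0 at single liver doses, 0 on the liver trend, 0 on the lung trend, 0 on the difference and 2 at 0 Gy, and the lung contrasts could not be fitted. The term leaves little dose difference within slides, and whether slide itself moved these genes was not tested. The calls at 0 Gy were also 2 with the processed signal scaled to its 75th percentile, with the deposited series values and with slide as a random block, where Jun and Gadd45g lost theirs. Without the lung arrays of slide 5 the difference had 0 calls. Called values that turned sign were the lung trend of Gadd45a (0.12), and at 0 Gy the tissue differences of Gadd45g (-0.54) and Jun (-1.33), all with slide as a fixed term. Under that term values that had not been called turned too, among them the liver trends of Fos (-1.56), Jun (-0.79) and Gadd45g (-1.91), the trend differences of Jun (0.53) and Gadd45a (0.22), and Fos at 0 Gy (-3.71).

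Leaving out 1 array at a time gave 2 to 6 calls at single liver doses, 2 without mouse 1, 11 or 24 and 6 without mouse 21 or 5, and 2 to 3 on the liver trend. In lung it gave 6 to 8 and 2 to 3, on the difference 2 to 3 and at 0 Gy 2 to 4.

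The mouse number as a replicate block, for the tissue comparisons, added 1 call, the trend difference of Egr1 (-1.87, limma adjusted p = 0.037), and changed no other. Within tissues, arrays of the same number series had a median r of -0.007 over all probes in liver (0 of 45 pairs over 0.1) and of 0.032 in lung (13 of 45 over 0.1, against 19 of 90 pairs of other series and dose). Not every pair passed 0.1, and the series was not taken as a pairing, although it ordered the liver mice for most of these 10 genes. As a replicate block it gave 10 calls at single liver doses, 5 on the liver trend and 6 on the difference. The added calls were Gdf15 at 4, 8 and 12 Gy (adjusted p = 0.0294, 0.00286 and 0.00136), Egr1 at 8 and 12 Gy, Jun at 12 Gy, the trends of Fos (2.29, 0.0288) and Jun (1.54, 0.00216), and the differences of Gadd45a, Egr1 and Jun.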
